A study of Rattus norvegicus with 5 samples.

Results

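The genes described here encode the ligands, receptors, binding proteins and first substrate of the insulin and insulin-like growth factor (IGF) system in Müller cells, which are the main glial cells of the retina. They were chosen by symbol and number 10: the ligands Igf1 and Igf2, the receptors Insr, Igf1r and Igf2r, the binding protein genes Igfbp2, Igfbp3, Igfbp5 and Igfbp6, and the receptor substrate gene Irs1. Of the 8740 probe sets on the array that are not controls, 25 carried 1 of these symbols. A probe set is a group of oligonucleotides on the chip that reads 1 transcript, and a gene can have several. Of the 25, 18 were bright enough to be tested, and they belonged to 9 genes, since neither probe set of Igfbp3 was.

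Total RNA of Müller cells from male Sprague-Dawley rats was read on 5 rat oligonucleotide arrays. In the diabetic group, diabetes induced with streptozotocin, which kills pancreatic beta cells, had lasted 6 months, and the rats had received insulin in small doses against wasting. Its 2 arrays carried cells from the retinas of 12 rats, and since the labels name the second a technical replicate, they were counted as 1 pool; whether both carried the same RNA is not stated. The normal group comprised 3 pools from healthy rats on 1 array each, again with 12 rats in a pool. Diabetes, the toxin and the injected insulin came together in the diabetic rats, so their effects on these genes cannot be told apart. In RNA from isolated cells, a change in the share of a cell type and a change in RNA per cell cannot be told apart either.

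Insulin and the IGFs are related peptide hormones. Insulin acts through the insulin receptor, encoded by Insr, and both IGFs act mainly through the type 1 IGF receptor, encoded by Igf1r. Both receptors are tyrosine kinases that phosphorylate substrates such as Irs1 and so feed the phosphoinositide 3-kinase and MAP kinase pathways, while the type 2 receptor, encoded by Igf2r, takes up Igf2 for breakdown and carries lysosomal enzymes. The binding proteins hold IGFs outside cells and can block or prolong their action. In the retina, IGFs are known as survival and growth signals for neurons and vessels.

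The arrays limit the precision of every value. Median deposited signals ran from 27.9 to 91.3, so the arrays were brought to a common distribution by quantile normalisation, and signals under a floor of 20 were set to it, since values below it have no order. The actin signal at the 3′ end over that at the 5′ end, which grows as RNA breaks down, was 1.76 on diabetic array 1 and 2.56 on diabetic array 2. It was 2.61, 1.52 and 1.46 on normal arrays 1, 2 and 3. The same ratio for Gapdh was 1.107 and 1.345 on diabetic arrays 1 and 2. On normal arrays 1, 2 and 3 it was 1.157, 1.239 and 1.033. Normal array 1, the highest by actin, thus lay below normal array 2 by Gapdh, so the 2 ratios do not group the arrays alike. Diabetic array 2 shared a hybridisation day and chip lot with normal array 3. Normal arrays 1 and 2 had days and lots not shared with another array on record. For diabetic array 1 the record was empty, so its day and lot are not known. All 10 measured markers of Müller cells, from the glutamine synthetase gene Glul to the glutamate transporter gene Slc1a3, were bright enough to be tested, and so were all 8 of photoreceptors, 12 of 15 of inner neurons and 8 of 10 of leukocytes. The markers thus show Müller cell transcripts on every array beside those of other cells, and do not measure purity.

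Among the members, 1 probe set of Igfbp2, J04486_at, gave the highest difference above normal. For Igfbp6 and Irs1 both diabetic arrays lay below all normal arrays. No probe set of the 10 genes passed limma's test, which was fitted and adjusted over all 6118 tested probe sets: 0 of 18 had an adjusted p under 0.05, against 0% of all tested probe sets. At an unadjusted p under 0.05 there was 1 of 18, a probe set of Igfbp2, where 1.6% of all tested probe sets reached that level and 1.19% reached it above normal. Of the 18, 7 lay above and 11 below normal, with a median log2 difference of -0.12, against -0.01 over all tested probe sets. Both diabetic arrays exceeded every normal array for 1 of 18, where the share over all tested probe sets was 9.53%, and below them for 2 of 18, where it was 7.01%. With 1 diabetic pool, limma takes the spread from the 3 normal pools and assumes that diabetic pools vary alike. An exact permutation of 1 pool against 3 cannot give a p below 0.25.

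**Figure D1:**
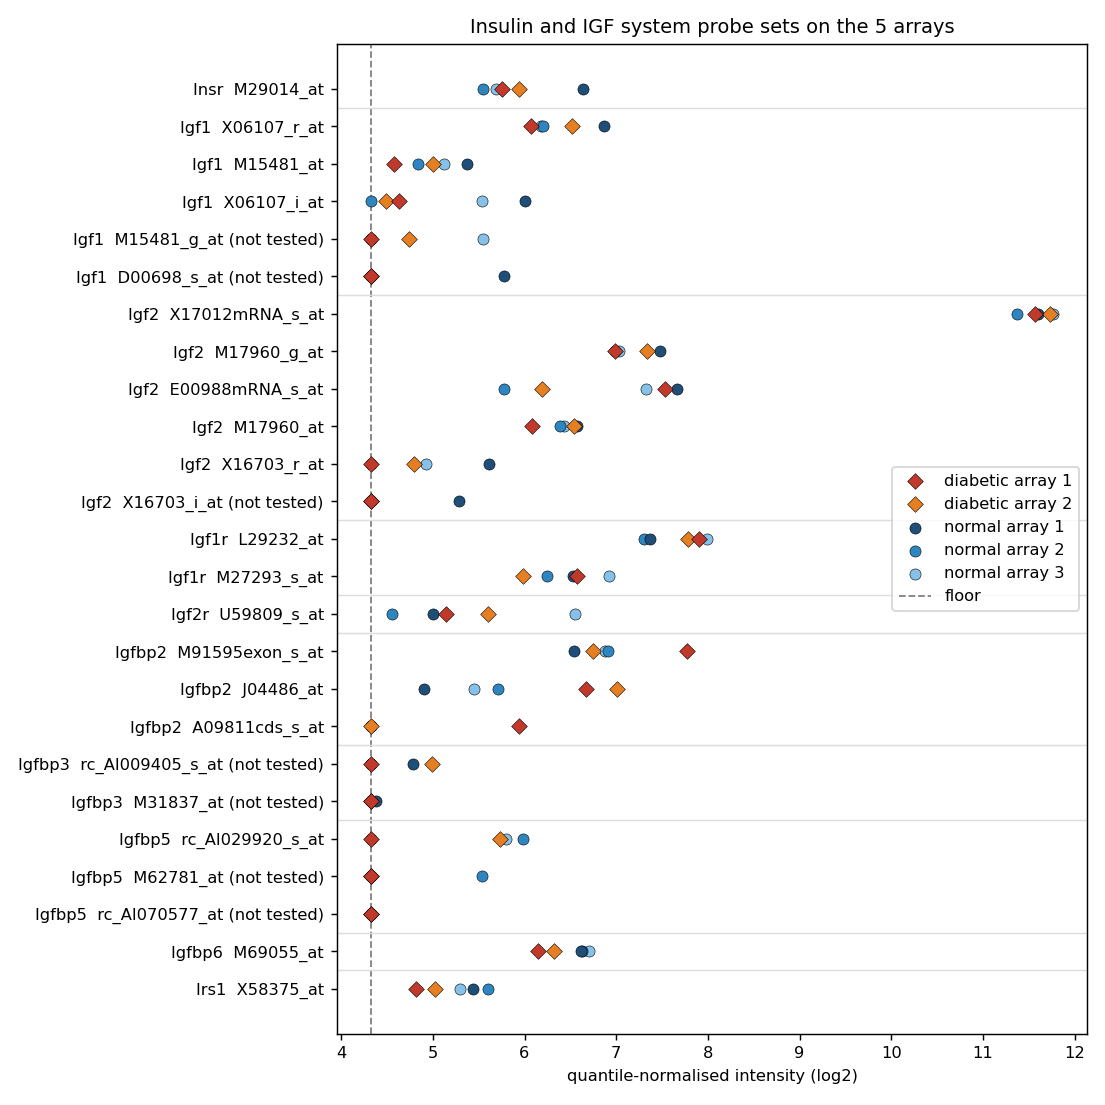
Quantile-normalised intensity (log2) of the 25 probe sets of the 10 genes, 1 row each, on the diabetic arrays (diamonds) and the normal arrays (circles); the dashed line is the floor, where points lie over each other. Diabetic and normal arrays separate for Igfbp2 J04486_at, Igfbp6 and Irs1 and overlap on the other tested probe sets.

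The 3 genes whose arrays did not overlap between groups on a tested probe set are shown by the DNA around their annotated starts, as a choice of what to print, since none of them passed the adjusted test and their count is near that over all tested probe sets. Each window spans 250 bases before to 50 bases after the start on the gene's own strand, from RefSeq on rat build GRCr8: chr9:81864561-81864860 on the + strand, chr7:135154669-135154968 on the + strand and chr9:91053910-91054209 on the - strand. Capitals mark matches on either strand to GGGCGG, the core of the GC box bound by Sp1, or to CACGTG, an E-box.
Igfbp2: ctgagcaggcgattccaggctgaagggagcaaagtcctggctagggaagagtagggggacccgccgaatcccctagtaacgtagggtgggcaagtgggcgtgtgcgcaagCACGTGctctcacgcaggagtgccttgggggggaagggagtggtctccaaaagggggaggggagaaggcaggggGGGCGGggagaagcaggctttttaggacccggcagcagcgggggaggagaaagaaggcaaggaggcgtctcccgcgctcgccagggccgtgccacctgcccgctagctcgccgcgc
Igfbp6: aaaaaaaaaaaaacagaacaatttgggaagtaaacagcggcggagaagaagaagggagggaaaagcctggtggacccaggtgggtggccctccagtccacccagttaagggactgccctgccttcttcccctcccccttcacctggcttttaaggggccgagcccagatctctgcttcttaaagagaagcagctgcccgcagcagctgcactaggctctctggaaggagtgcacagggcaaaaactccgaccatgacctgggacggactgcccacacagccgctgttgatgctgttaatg
Irs1: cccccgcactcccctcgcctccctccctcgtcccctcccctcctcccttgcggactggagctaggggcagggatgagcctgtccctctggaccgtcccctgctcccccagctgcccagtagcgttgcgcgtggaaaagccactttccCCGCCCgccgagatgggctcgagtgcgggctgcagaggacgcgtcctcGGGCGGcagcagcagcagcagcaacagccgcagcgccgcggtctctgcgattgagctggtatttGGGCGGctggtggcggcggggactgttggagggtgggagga
The Igfbp2 window held 1 GC box and 1 E-box, the Irs1 window 3 GC boxes and no E-box, and the Igfbp6 window neither. All 10 genes matched the RefSeq table, with 11 windows, because Igf2 has 2 annotated starts there. A GC box was present in 6 of the 11 windows, against 33.1% of 33469 rat windows of the same length. CACGTG was present in 3, against 6.42%, and TATAAA in 0, against 14.2%. These matches describe letters only, and the G+C content of the windows, from 48.3% for Igf1 to 78.0% for Igf1r, was mostly above the median of 51.7% over all windows.

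Igfbp2 encodes a binding protein that prefers Igf2 and is known as a product of glia in the nervous system. On probe set J04486_at its normalised intensity was 102 and 129 on the diabetic arrays, against 29.95, 52.3 and 43.6 on the normal arrays. Both diabetic arrays exceeded every normal array, with a gap between the groups wider than the gap between the diabetic arrays. The log2 difference was 1.49 (SE 0.54, 1 diabetic pool and 3 normal pools, 95% interval 0.15 to 2.82), or 2.80-fold, with an unadjusted p of 0.0349 and an adjusted p of 0.9999 in limma. The unadjusted p was 0.0614 without normal array 2, 0.0865 without normal array 3 and 0.0526 without diabetic array 2. Over all 6118 tested probe sets, 41 had a larger difference in that direction. The exact permutation test over the 4 pools gave p = 0.25, two-sided, the smallest it allows.

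The separation of J04486_at was present in the values as deposited, before any scaling. Those were 109 and 152 on the diabetic arrays, against 22.6, 24.5 and 65.7 on the normal arrays. The highest of the normal values came from normal array 3, the brightest array of the series. Against that array, diabetic array 2 of the shared day and lot was higher by 1.56 on the normalised log2 scale. The difference was 1.09 over the 3 arrays of low actin ratio and 2.10 between diabetic array 2 and normal array 1, the 2 arrays with a high ratio.

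After normalisation and the floor, the other probe sets of Igfbp2 were above the normal arrays on diabetic array 1 and not on diabetic array 2. M91595exon_s_at read 219 and 107 in normalised intensity on the diabetic arrays, against 92.8, 120 and 118 on the normal arrays. Diabetic array 1 stood clear of the normal arrays, while diabetic array 2 lay among them. The log2 difference was 0.49 (SE 0.39, 95% interval -0.49 to 1.46, limma adjusted p = 0.9999), and it was -0.03 without diabetic array 1, 1.001 without diabetic array 2 and -0.13 between the arrays of the shared day. A09811cds_s_at read 61.3 on diabetic array 1 and was under the floor on diabetic array 2 and on all 3 normal arrays. Its log2 difference of 0.81 (SE 0.45, adjusted p = 0.9999) therefore came from diabetic array 1 alone. It is given without a fold, since the floor stands in for the other 4 values. As deposited, A09811cds_s_at read 64.8 and 24.5 on the diabetic arrays, against 8.2, 7.8 and 15 on the normal arrays, without overlap. With all normal arrays at the floor, this probe set passed the filter on dim probe sets only through diabetic array 1 and could not lie below normal. It counts among the 7 of 18 above normal but is no support for a direction of Igfbp2. The probe sets of Igfbp2 read RNA of the same pool and are not independent.

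**Figure D2:**
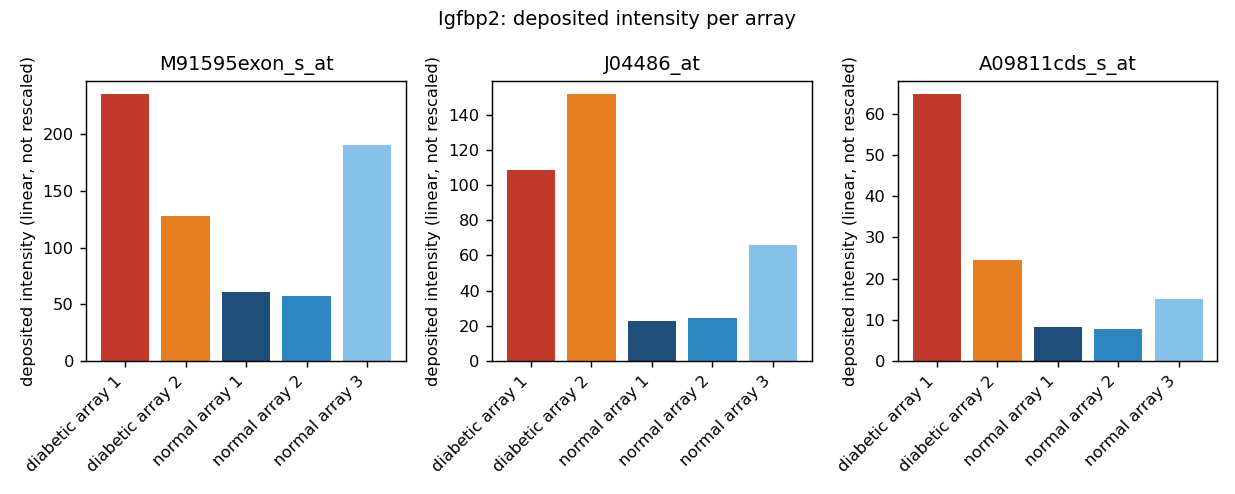
Deposited intensity (linear, before any scaling) of the 3 Igfbp2 probe sets on each array, diabetic arrays left of normal arrays. Both diabetic arrays exceed all normal arrays on J04486_at (109 and 152 against 22.6 to 65.7), and on M91595exon_s_at diabetic array 2 lies below normal array 3; A09811cds_s_at is dim on all arrays but diabetic array 1.

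Markers of some other cells lay above normal together with Igfbp2 J04486_at and those of others did not. With limma 0 of them passed the adjusted threshold, and 2, Opn1sw of photoreceptors and Coro1a of leukocytes, had an unadjusted p under 0.05. All 8 measured photoreceptor markers lay above normal, 5 of them without overlap of arrays, beside 9.53% of all tested probe sets, and their summed normalised intensity was 14954 and 15430 on the diabetic arrays, against 5182 to 12027 on the normal arrays. Of 8 tested leukocyte markers 7 lay above normal, 5 without overlap, with sums over all 10 on the array of 2071 and 2256 on diabetic arrays, against 1482 to 1739 on normal arrays. The pigment epithelium was covered by only 2 markers: Ttr lay above normal on both diabetic arrays, while Rpe65 was at the floor on all 5 arrays. Inner neuron markers, with 4 of 12 above normal, summed to 1919 and 2300 on diabetic arrays, against 1572 to 2711 on normal arrays. Endothelial and pericyte markers, with 2 of 7 above normal, summed to 2488 and 2986 on diabetic arrays, against 2549 to 3434 on normal arrays, and Des was at the floor throughout. Müller markers summed to 40739 and 41547 on diabetic arrays, against 35492 to 45708 on normal arrays. The part of these cell types in the Igfbp2 values was not tested.

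The other binding protein genes did not show the pattern of Igfbp2 J04486_at. After normalisation and the floor, the other probe sets of Igfbp2 did not share it either. Igfbp6, whose protein binds Igf2 with marked preference, read 70.7 and 80.1 in normalised intensity on the diabetic arrays, against 97.9, 98.6 and 104 on the normal arrays. Both diabetic arrays lay below all normal arrays, which were close to each other. The log2 difference was -0.41 (SE 0.40, 95% interval -1.41 to 0.58, limma adjusted p = 0.9999), or 0.75 of normal, and -0.38 between the arrays of the shared day. On deposited values without scaling the difference was 0.10, where the median over all probe sets was 0.47; median deposited signals were 62.1 and 73.1 on the diabetic arrays, against 40.9, 27.9 and 91.3 on normal arrays 1, 2 and 3. Limma's SE draws on probe sets of similar brightness, so it is larger than the spread of 0.05 (SD, log2, n = 3) between these normal arrays alone.

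Igfbp5, whose protein binds both IGFs and extracellular matrix, was read by 3 probe sets, and only rc_AI029920_s_at was tested. It was under the floor on diabetic array 1 and 53.1 in normalised intensity on diabetic array 2, against 17.4 (under the floor), 63.5 and 55.6 on the normal arrays. Each group thus held an array under the floor, and the log2 difference was -0.34 (SE 0.78). It was 0.36 without diabetic array 1 and -1.05 without diabetic array 2. Probe set M62781_at was above the floor on normal array 2 only, at 46.6, and rc_AI070577_at was under the floor on all 5 arrays. Igfbp3, encoding the main carrier of IGFs in blood, was at or near the floor. Its probe set rc_AI009405_s_at reached 31.9 on diabetic array 2, with diabetic array 1 under the floor, against 27.6 on normal array 1 with the other normal arrays under the floor. M31837_at exceeded the floor on normal array 1 only, at 20.8. A change in Igfbp3 or in these probe sets of Igfbp5 was not detectable at this brightness.

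Igf2, a growth factor best known from fetal tissue, choroid plexus and meninges, was read by 6 probe sets, and the groups overlapped on each. X17012mRNA_s_at read 3027 and 3403 on the diabetic arrays, against 3096, 2646 and 3482 on the normal arrays, in normalised intensity. The diabetic arrays lay within the normal range, with a log2 difference of 0.07 (SE 0.26). The 95% interval of -0.59 to 0.73 was the narrowest of the 18. M17960_g_at read 127 and 162 on diabetic arrays, against 178, 127 and 131 on normal arrays, for a log2 difference of 0.0002 (SE 0.39).

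The remaining Igf2 probe sets gave log2 differences between -0.39 and -0.06 on the tested ones. E00988mRNA_s_at was the least steady, with 185 and 72.9 in normalised intensity on the diabetic arrays, against 203, 54.8 and 161 on the normal arrays. Its diabetic arrays, which the labels call technical replicates, differed by 1.34 on the log2 scale, and its group difference was -0.06 (SE 0.79). M17960_at differed by -0.15 (SE 0.41) and X16703_r_at by -0.39 (SE 0.64), where 1 array of each group was under the floor. X16703_i_at was under the floor on both diabetic arrays and on 2 of 3 normal arrays. The suffixes _r and _i mark probe sets whose oligonucleotides did not meet all of the manufacturer's selection rules.

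Igf1, the growth factor made in liver under growth hormone and also by microglia and neurons, lay below normal on its 3 tested probe sets, and the arrays overlapped on each. X06107_r_at read 67.2 and 91.8 in normalised intensity on the diabetic arrays, against 117, 73.8 and 72.7 on the normal arrays, a log2 difference of -0.12 (SE 0.49). M15481_at read 23.8 and 32.1 on diabetic arrays, against 41.5, 28.6 and 34.7 on normal arrays, a log2 difference of -0.32 (SE 0.49). X06107_i_at read 24.9 and 22.5 on diabetic arrays, against 64.2, a value under the floor, and 46.4 on normal arrays. That probe set had the most negative log2 difference of the 18, -0.72 (SE 0.76, 95% interval -2.61 to 1.17, limma adjusted p = 0.9999), and normal arrays 1 and 2 stood on either side of both diabetic arrays. It was -0.36 without normal array 1, -1.20 without normal array 2 and -0.27 with a floor of 5, where that of Igfbp5 rc_AI029920_s_at, -1.14, was lower. Normal array 1 was the highest normal array for all 3 of them, and without it the difference of X06107_r_at was 0.10. Of the probe sets not tested, D00698_s_at was above the floor on normal array 1 only, and M15481_g_at on diabetic array 2 and normal array 3 only.

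Insr, the insulin receptor gene, was read by M29014_at. Its normalised intensity was 54.0 and 61.2 on the diabetic arrays, against 99.7, 46.8 and 51.7 on the normal arrays. The diabetic values fell between those of the normal arrays, with normal array 1 apart from the rest. The log2 difference was -0.11 (SE 0.61, 95% interval -1.63 to 1.40, limma adjusted p = 0.9999), and it was 0.23 without normal array 1.

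Igf1r, the type 1 IGF receptor gene, had 2 probe sets with differences of opposite sign. L29232_at read 239 and 220 in normalised intensity on the diabetic arrays, against 166, 158 and 255 on the normal arrays, a log2 difference of 0.28 (SE 0.40). M27293_s_at read 95.02 and 63.3 on the diabetic arrays, against 92.2, 75.8 and 121 on the normal arrays, a log2 difference of -0.29 (SE 0.47). Groups overlapped on both, and between the arrays of the shared day both were lower on the diabetic array, with log2 differences of -0.21 and -0.94. Igf2r, the type 2 receptor gene, read 35.3 and 48.6 on U59809_s_at on the diabetic arrays, against 32.1, 23.5 and 93.7 on the normal arrays. Normal arrays spanned 1.99 on the log2 scale, so the difference of 0.003 (SE 0.86, 95% interval -2.14 to 2.15) leaves room for changes in either direction.

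Irs1, the adaptor that both receptors phosphorylate, read 28.3 and 32.6 in normalised intensity on X58375_at on the diabetic arrays, against 43.3, 48.6 and 39.3 on the normal arrays. Both diabetic arrays lay below all normal arrays. The log2 difference was -0.52 (SE 0.47, 95% interval -1.70 to 0.66, limma adjusted p = 0.9999), or 0.697 of normal, and -0.27 between the arrays of the shared day. It was -0.63 over the 3 arrays of low actin ratio. All 5 arrays lay below 50, so a floor of 50 left no difference, and on unscaled deposited values it was -0.0006. For Irs1 and Igfbp6 the exact permutation test over the 4 pools gave p = 0.25, two-sided, again the smallest it allows. It gave the same value for Igfbp2 M91595exon_s_at and A09811cds_s_at, whose arrays overlapped, so this value does not set a gene apart.

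**Figure D3:**
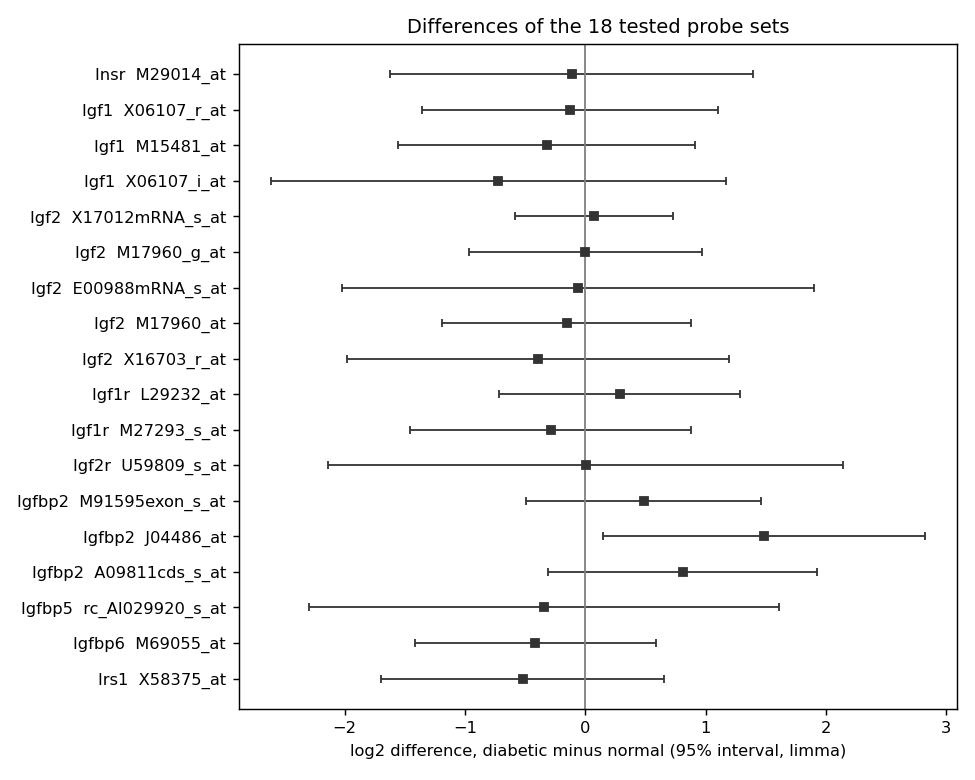
Log2 difference, diabetic minus normal, of the 18 tested probe sets with its 95% interval from limma (1 diabetic pool, 3 normal pools). Only the interval of Igfbp2 J04486_at (0.15 to 2.82) excludes 0, before adjustment for the number of probe sets.

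The size of these differences was set against the spread of the arrays. Over the 18 probe sets the median absolute log2 difference between the groups was 0.30, while the median gap between the 2 diabetic arrays was 0.44 and the median range of the normal arrays 0.68. Over all tested probe sets these medians were 0.23, 0.36 and 0.70. For 13 of 18 members the range of the normal arrays exceeded the difference between the groups. For 13 of 18 the gap between the diabetic arrays did. A range or gap of single arrays tends to exceed a difference of group means for any probe set. The medians had the same order over all tested probe sets, for which such counts are not given.

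Further genes of the pathway, from the hormones to the kinases downstream, showed no common direction. Of 64 listed genes 42 were on the array and 36 had a tested probe set. By their brightest probe set 18 lay above and 18 below normal, with a median log2 difference of 0.005 and a range of -0.79 to 1.098. With limma 0 of 36 passed the adjusted threshold and 1 had an unadjusted p under 0.05. Both diabetic arrays exceeded every normal array for 3 genes and below them for 2. These shares stand beside 9.53% and 7.01% of all tested probe sets.

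The gene with the largest difference of the list was Pcsk2, a convertase that cleaves proinsulin and proneuropeptides in endocrine cells and neurons. It read 246 and 203 in normalised intensity on the diabetic arrays, against 93.8, 99.7 and 122 on the normal arrays, a log2 difference of 1.098 (SE 0.38, unadjusted p = 0.0309, adjusted p = 0.9999 in limma). Its dimmer probe set S40669_s_at differed by 0.15 (SE 0.53). Grb10, an adaptor that restrains insulin and IGF receptor signalling, differed by 0.44 (SE 0.44) without overlap of arrays. Grb2, the adaptor that links receptors to Ras, differed by 0.42 (SE 0.28) without overlap on its brightest probe set and by 0.32 and -0.35 on the others.

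Below normal without overlap were the kinase gene Akt2, by -0.36 (SE 0.43), and Ide, which encodes an insulin-degrading protease, by -0.27 (SE 0.35), or 0.02 on its other probe set. Akt1 differed by -0.06 (SE 0.24) with overlap on its brightest probe set and by -0.20 (SE 0.26) without overlap on another. Irs2, the second main substrate of these receptors, was above the floor on all arrays on AF050159_at only, with 138 and 62.2 in normalised intensity on the diabetic arrays, against 68.4, 69.5 and 59.0 on the normal arrays. Diabetic array 1 alone was high, and the log2 difference was 0.50 (SE 0.44). Igfals, encoding the subunit that joins IGF and Igfbp3 in blood, differed by -0.57 (SE 0.65), -0.28 (SE 0.53) and -0.46 (SE 0.48) on its 3 probe sets. The arrays overlapped on the first, which is the brightest, and the second, but not on the last, S46785_g_at. Pik3r1, a regulatory subunit of phosphoinositide 3-kinase, was too dim to be tested: D64045_s_at read 31.5 and 22.4 on the diabetic arrays, against values under the floor on all 3 normal arrays. Its other probe set, U50412_at, read 28.6 on diabetic array 1 and was under the floor on diabetic array 2 and on all 3 normal arrays. Igfbp1, encoding a binding protein of liver that insulin represses, was under the floor on all 5 arrays.

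The insulin genes gave contradictory readings. M25584_at, annotated to Ins1, read 532 and 398 in normalised intensity on the diabetic arrays, against 575, 283 and 288 on the normal arrays. J04807mRNA_i_at, annotated to Ins2, read 538 and 534 on diabetic arrays, against 726, 458 and 466 on normal arrays. The groups overlapped on both, with log2 differences of 0.35 (SE 0.48) and -0.003 (SE 0.35). The other 2 probe sets of Ins2 were under the floor on all 5 arrays, and those of Ins1 lay between the floor and 5.54 on the log2 scale. Ins1 and Ins2 are near-identical copies, so a probe set of either can read both, and the level of insulin transcript in these cells stays uncertain.

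**Figure D4:**
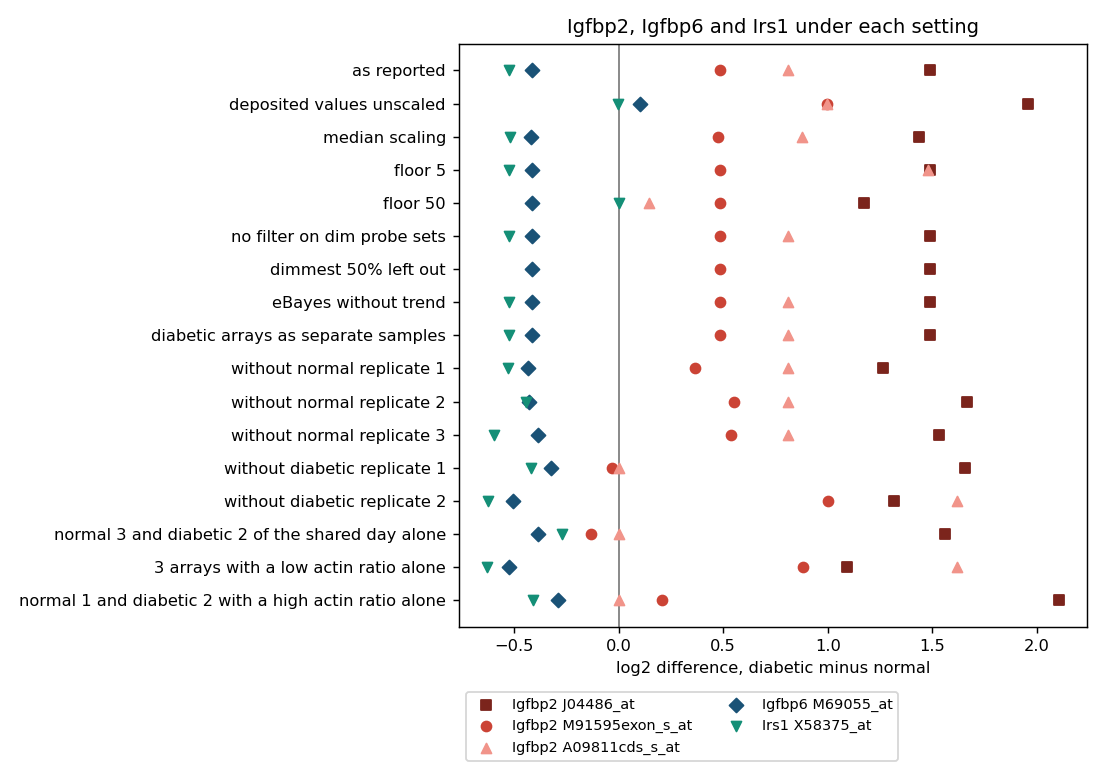
Log2 difference, diabetic minus normal, of the 3 Igfbp2 probe sets, Igfbp6 and Irs1 as reported and under each alternative setting (rows). J04486_at lies between 1.09 and 2.10 in every row, and Igfbp6 and Irs1 are below or at 0 in all rows that show them but the unscaled one, where Igfbp6 is at 0.10; 2 probe sets drop out with the dimmest 50%.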

How the data were processed

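The deposited table gives 1 linear intensity per probe set and array, per the file headers. How the authors summarised and scaled it is not stated in the sources used here. The deposited experiment records served only to find shared days and chip lots. The trimmed means of the arrays differed by 3.52-fold, so intensities were quantile-normalised over 8799 probe sets, floored at 20 and converted to log2. The 59 controls were left out, as were the dimmest 30% by the mean of the group means, which left 6118. The diabetic arrays were averaged into 1 pool and compared with the 3 normal pools by limma 3.58.1 (R 4.3.3, lmFit and eBayes with trend, 2 residual and 3.54 prior degrees of freedom), with two-sided p-values, adjusted after Benjamini and Hochberg over the whole set of 6118, and a threshold of 0.05. The labels call the normal replicates biological.

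Symbols came from the platform annotation. Of its 7326 probe sets, 7018 had 1 symbol and 308 several, which were not named. Of those with 1 symbol, 6994 matched RefSeq gene IDs (GRCr8), with 0 symbols changed. A pathway gene stands by its brightest tested probe set. Named were all members with every probe set, the 3 highest and 3 lowest pathway genes without overlap of arrays (only 2 lay below), and a short list of pathway genes where measured; Igfbp4 was not analysed here. Cell type marker lists also covered inner retinal neurons (4 of 12 tested above normal) and erythrocytes (2 of 3). Members, lists and tests were chosen with earlier results of these data known. The limma step was also run on simulated data, where every array was drawn independently, unlike the repeat arrays of the diabetic pool. That run does not check the p-values for this design. Figures were drawn with matplotlib 3.10.9. Alternatives are given in the closing section.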

Additional observations from a re-analysis of the deposited data

How the results depend on the processing

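No member result past limma's adjusted threshold was reported, and the count of 0 held with unscaled values, median scaling, a floor of 5, the dimmest 50% left out, eBayes without trend, the diabetic arrays as separate samples, each array left out, a threshold of 0.1 and the 3 arrays of low actin ratio. That last set and the pair of arrays with a high ratio were chosen after seeing the data. With a floor of 50 it was 2 (Igfbp2 J04486_at, difference 1.17, adjusted p = 0.00970, and A09811cds_s_at, 0.15, adjusted p = 0.00639), and without the filter on dim probe sets 1 (A09811cds_s_at, 0.81, adjusted p = 3.07e-04). In these fits 706 and 1689 probe sets had no spread between normal arrays, against 10 as reported, and 154 and 170 of all probe sets were called. Over its alternatives the adjusted p of J04486_at ranged from 0.00970 to 1 and its difference from 1.09 to 2.10. Unscaled values shifted the median of all probe sets to 0.47. They put 14 of 18 members and 34 pathway genes above normal, with 0 members at an unadjusted p under 0.05, 2 above and 0 below all normal arrays. They turned the direction of Insr (0.45), Igf1 X06107_r_at (0.41) and M15481_at (0.013), Igf2 E00988mRNA_s_at (0.50) and M17960_at (0.36), Igf1r M27293_s_at (0.24) and Igfbp6 (0.10). Igf2r turned with median scaling (-0.072) and a floor of 50 (-0.30). Over the 3 arrays of low actin ratio Insr (0.14), Igf2 X17012mRNA_s_at (-0.0041), M17960_g_at (-0.020) and E00988mRNA_s_at (0.98) and Igf2r (-0.41) turned. There 4 members had an unadjusted p under 0.05, as did 507 of all 6118 probe sets against 98 as reported, 5 members lay above and 6 below the normal arrays. Separation is easier to reach for any probe set when fewer arrays are compared, as over those 3 arrays. The member count above all normal arrays was 2 with median scaling and with a floor of 5. The count below them was 1 with a floor of 50 and with the dimmest 50% left out. Shares over all probe sets are not given for any of these settings. The counts of separated members there are therefore no result about the members. The cause of these turns was not tested.

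Leaving out 1 array at a time gave 4 to 9 members above normal (4 without normal array 2), 0 to 2 with an unadjusted p under 0.05 (0 without normal array 2 or 3, 2 without normal array 1 or diabetic array 2, while the count over all 6118 ran from 72 to 316), 1 to 3 above all normal arrays (2 without normal array 1, 3 without normal array 3 or diabetic array 2) and 2 to 5 below (5 without normal array 2 or diabetic array 2). With an array less, separation is easier to reach for any probe set, and shares over all probe sets are not given for these fits. The counts above and below all normal arrays are therefore no result about the members. Directions turned within the ranges -0.32 to 0.23 for Insr and -0.35 to 0.10 for Igf1 X06107_r_at. For Igf2 they turned within -0.033 to 0.17 on X17012mRNA_s_at and -0.17 to 0.18 on M17960_g_at. On E00988mRNA_s_at and M17960_at they turned within -0.73 to 0.61 and -0.38 to 0.073. They also turned within -0.58 to 0.0056 for Igf1r M27293_s_at, -0.40 to 0.59 for Igf2r, -0.029 to 1.001 for Igfbp2 M91595exon_s_at and -1.05 to 0.36 for Igfbp5. Without turning, Igf1 X06107_i_at ranged from -1.20 to -0.36, Igf1 M15481_at from -0.54 to -0.11 and Igf2 X16703_r_at from -0.71 to -0.065. J04486_at, whose unadjusted p was above 0.05 in 3 of these 5 fits, stayed at 1.26 to 1.66, Igfbp6 at -0.51 to -0.32 and Irs1 at -0.62 to -0.42. No paired analysis was possible because the diabetic replicate numbers mark technical repeats of 1 pool and the normal numbers separate pools.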
